A study of Mus musculus with 14 samples.

Results

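The 32 genes described here are markers of postmitotic neurons, the cells that have left the cell cycle and are growing axons and making synapses. They are a list of gene names, and all 32 were found among the 18132 named genes of the table. They comprise 13 genes of the cytoskeleton, 3 of neuronal RNA-binding proteins, 11 of synaptic vesicles and secretory compartments, 3 of cell adhesion, and Gng3 and Rtn1. RNA was measured by poly-A sequencing in 14 whole mouse fetuses at gestational day 12.5, all of wild-type genotype and of the F1 cross labelled C57BL/6Jx129S1/SvlmJ, carried by CD1 recipient dams. Each had been injected as a zygote, under random assignment. The mimic group received let-7f-5p, a synthetic form of a microRNA, at a concentration called stress-relevant in the labels, and gave 3 female and 2 male fetuses. The vehicle group received the nuclease-free water in which the mimic was dissolved and gave 5 female and 4 male fetuses. Litters and dams are not named in the labels, so fetuses of 1 group may be littermates, and the p-values reflect only how much these 14 fetuses varied.

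Libraries held 27709934 to 42898166 reads on named genes. Values below are the deposited normalized read counts, in which 1 read was worth 0.794 to 1.76 units depending on the library. Several libraries stood apart in composition. Ribosomal protein genes took 14.8% of reads in let-7f male 1, 9.04% in vehicle male 2 and 6.65% in vehicle female 1, and 3.75% to 5.75% in the other 11. A score for each gene list was the mean, over its genes, of log2(value + 1) minus the mean of the 14 libraries. By this score vehicle female 2 was low in liver genes (-5.38, all others -0.82 or more) and vehicle male 1 was high in trophoblast genes (2.43, all others 0.37 or less). These 5 libraries are left out where values "without the 5 libraries" are given. Because whole fetuses were used, fewer neurons, less RNA per neuron and less RNA of these genes from other cells cannot be told apart.

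As a neural progenitor leaves the cycle it turns on a shared programme. Neuron-specific tubulin and doublecortin build the microtubules of the growing process, stathmins regulate their turnover, and kinesins move cargo along them. Hu and CELF proteins bind neuronal messenger RNAs, while SNAP and VAMP proteins, synaptotagmins and complexins run the fusion of synaptic vesicles. In non-neuronal cells many of these genes are kept silent by the repressor REST, which binds a motif called RE1. let-7 microRNAs pair through bases 2 to 8, the seed, with sites in target RNAs, and in the embryo they are known for promoting differentiation.

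The injected mimic is shown with its seed in capitals, because matches in the neuron genes were searched with those 7 bases. Its 22 bases are identical to mouse let-7f-5p in RefSeq (GRCm38.p6), which is encoded at chr13:48537889-48537910 on the minus strand and chrX:151912353-151912374 on the plus strand.
let-7f-5p mimic: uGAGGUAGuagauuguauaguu
A match to the seed (CTACCTC) was searched on the sense strand of the longest annotated 3′ UTR (GENCODE M21, GRCm38). It was found in 1 of the 32 genes, Dcx, that is 3.13%, against 10.6% of the 15482 tested genes with an annotated 3′ UTR. Matches to only part of the seed, or outside the 3′ UTR, were not searched. The median 3′ UTR was 1626 bases in the 32 genes and 1174 bases over all of these genes. The Dcx match lies at chrX:143860759-143860765 on the minus strand in a 3′ UTR of 7709 bases, and is shown in capitals with its flanks.
Dcx 3′ UTR: gttgcttgttcCTACCTCctgactgttct
The match is not followed by an A, which in known targets strengthens pairing. The authors' processing notes name the later build GRCm39, so these coordinates serve only to place the sequences.

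Promoter windows of 300 bases (250 before to 50 after the start, RefSeq, GRCm38.p6) were given for 20 of the 32 genes. The members with none were Mapt, Stmn2, Stmn4, Nefl, Nefm, Gap43, Celf4, Snap25, Syt4, Vamp2, Nsg1 and Ncam1. On both strands 8 motifs were searched. The left part of the RE1 motif (TTCAGCACC) was found in 1 of 20 genes, Nsg2, against 0.433% of all genes with a window, and its right part (GGACAGC) in 4 of 20 (Ank2, Map2, Rtn1 and Tubb3), against 7.59%. The E-box CAGCTG, bound by proneural factors, was found in 9 of 20 (Ank2, Chga, Cplx1, Elavl3, Elavl4, Ina, Nsg2, Sv2a and Syt1), against 18.3%, and the E-box CAGATG in 6 of 20, against 19.2%. The GC box (GGGCGG) was found in 12 of 20, against 38.2%, TATAAA in 5 of 20, against 15.7%, CCAAT in 10 of 20, against 41.1%, and the CRE (TGACGTCA) in 1 of 20, Kif5c, against 2.03%. These counts take a match in any window of a gene. The 20 genes had 32 windows and all 27025 genes had 32851, so members had more windows per gene. By window, the left RE1 part was in 3.125%, against 0.371%, and the right part in 12.5%, against 6.56%. CAGCTG was in 34.4%, against 16.3%, CAGATG in 28.1%, against 17.15%, and the CRE in 3.125%, against 1.79%. The GC box was in 43.8%, against 35.7%, TATAAA in 18.8%, against 13.6%, and CCAAT in 43.8%, against 37.4%. The median GC content of the members' windows was 56.3%, against 52.7% of all windows. Windows of the same gene can overlap, so a single site can count more than once. This was so for CAGCTG in Elavl4 and for CAGATG in Elavl4 and L1cam. A match describes the letters only. The stretches below show the RE1 part of Nsg2, and the E-boxes of Elavl3 and Cplx1, the members with the largest estimated changes in let-7f males, with the motif in capitals.
Nsg2, chr11:32000474-32000532, plus strand: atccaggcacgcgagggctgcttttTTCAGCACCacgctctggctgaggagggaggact
Elavl3, chr9:22052036-22052091, minus strand: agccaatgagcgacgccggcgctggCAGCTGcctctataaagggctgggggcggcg
Cplx1, chr5:108550079-108550134, minus strand: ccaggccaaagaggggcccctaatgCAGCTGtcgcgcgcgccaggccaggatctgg

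The programme was strongly expressed. Per kilobase of the longest coding transcript, 29 of the 32 genes lay above the median of the 15559 genes with an annotated length (266 units per kb), and 12 were in the top 10% (above 1533 units per kb). Tubb3, the neuron-specific beta-tubulin, had the highest level per length at 10128 units per kb on average. Stmn2 (3968), Gap43 (3538) and Nefm followed, and Cplx1 had the lowest at 135 units per kb. By class, the median level per kb was 1797 for microtubule proteins, 2271 for the neurofilament, growth cone and membrane skeleton genes, 1188 for the secretory granule and endosome genes, 947 for cell adhesion genes, 708 for Gng3 and Rtn1, 616 for RNA-binding proteins and 301 for synaptic vesicle genes. Vesicle release genes had the lowest median of the 7 classes, with Vamp2 (1501 units per kb) as the highest among them. Together the 32 genes took 0.306% to 0.538% of the reads. Their share was 0.481% ± 0.0486 in let-7f females, against 0.465% ± 0.0464 in vehicle females, and 0.387% ± 0.114 in let-7f males, against 0.489% ± 0.0656 in vehicle males (SD, n = 3, 5, 2 and 4). The lowest library was let-7f male 1, at 0.306%, while let-7f male 2 had 0.468%, inside the vehicle male range of 0.391% to 0.532%. The bottom of that range was vehicle male 2. Let-7f male 2 lay below the other vehicle males, which had 0.514% to 0.532%.

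**Figure D1:**
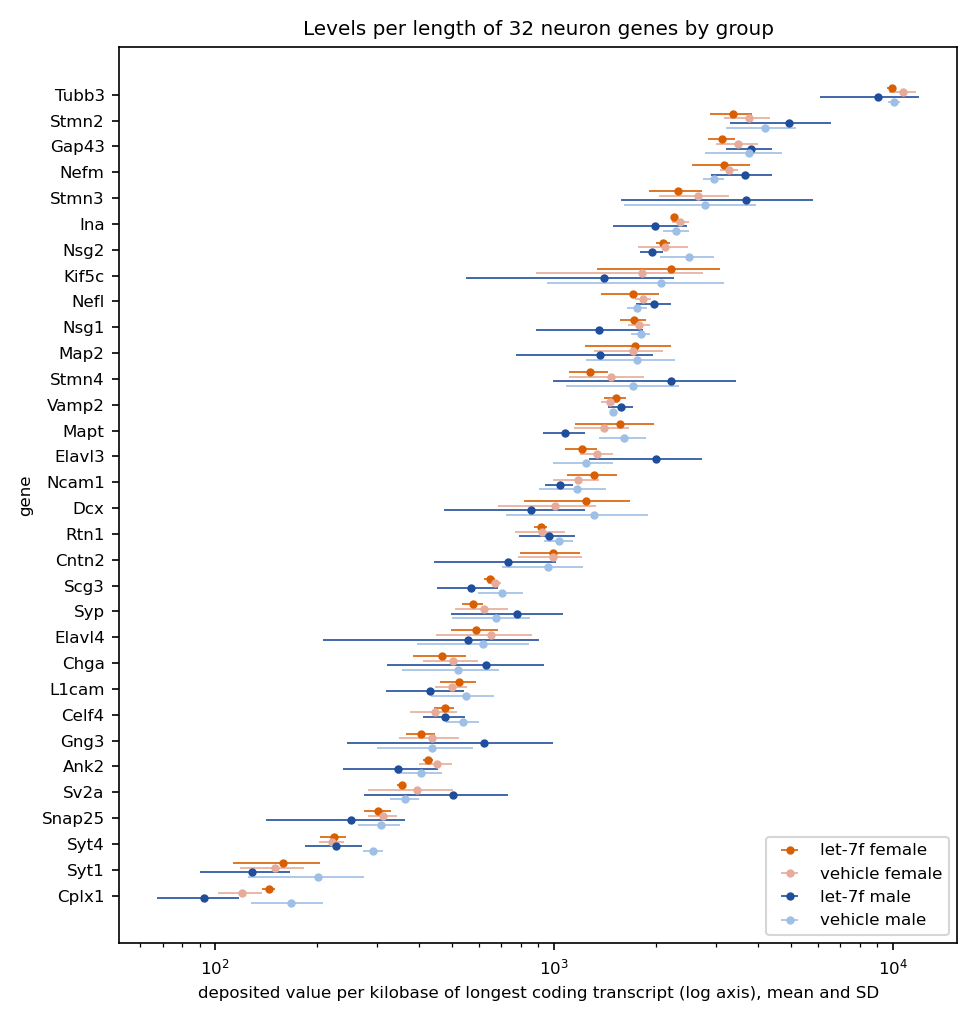
Level of each of the 32 neuron genes per kilobase of its longest coding transcript, on a log axis, as the mean and SD of each group. The order runs from Tubb3 at 10128 units per kb on average to Cplx1 at 135, and the 4 groups lie close together at each gene compared with the distance between genes.

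Within this shared level the members did not move as 1 block from fetus to fetus. Kif5c differed 6.82-fold between its highest and lowest library, Dcx 3.86-fold and Elavl4 3.11-fold, whereas Vamp2 differed 1.24-fold. Over the 496 pairs of members, the median correlation across the 14 libraries was 0.03, with a range of -0.94 to 0.98. There were 66 pairs above 0.8 and 136 below -0.5, unlike cutoffs whose counts cannot be set against each other. Pairs of other genes were not counted. The closest pair was Stmn3 with Chga (r = 0.98), and these values share libraries and scaling. Let-7f male 1 was the highest library for 11 members and the lowest for another 11, and vehicle male 2 was the highest for 3 and the lowest for 5.

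**Figure D2:**
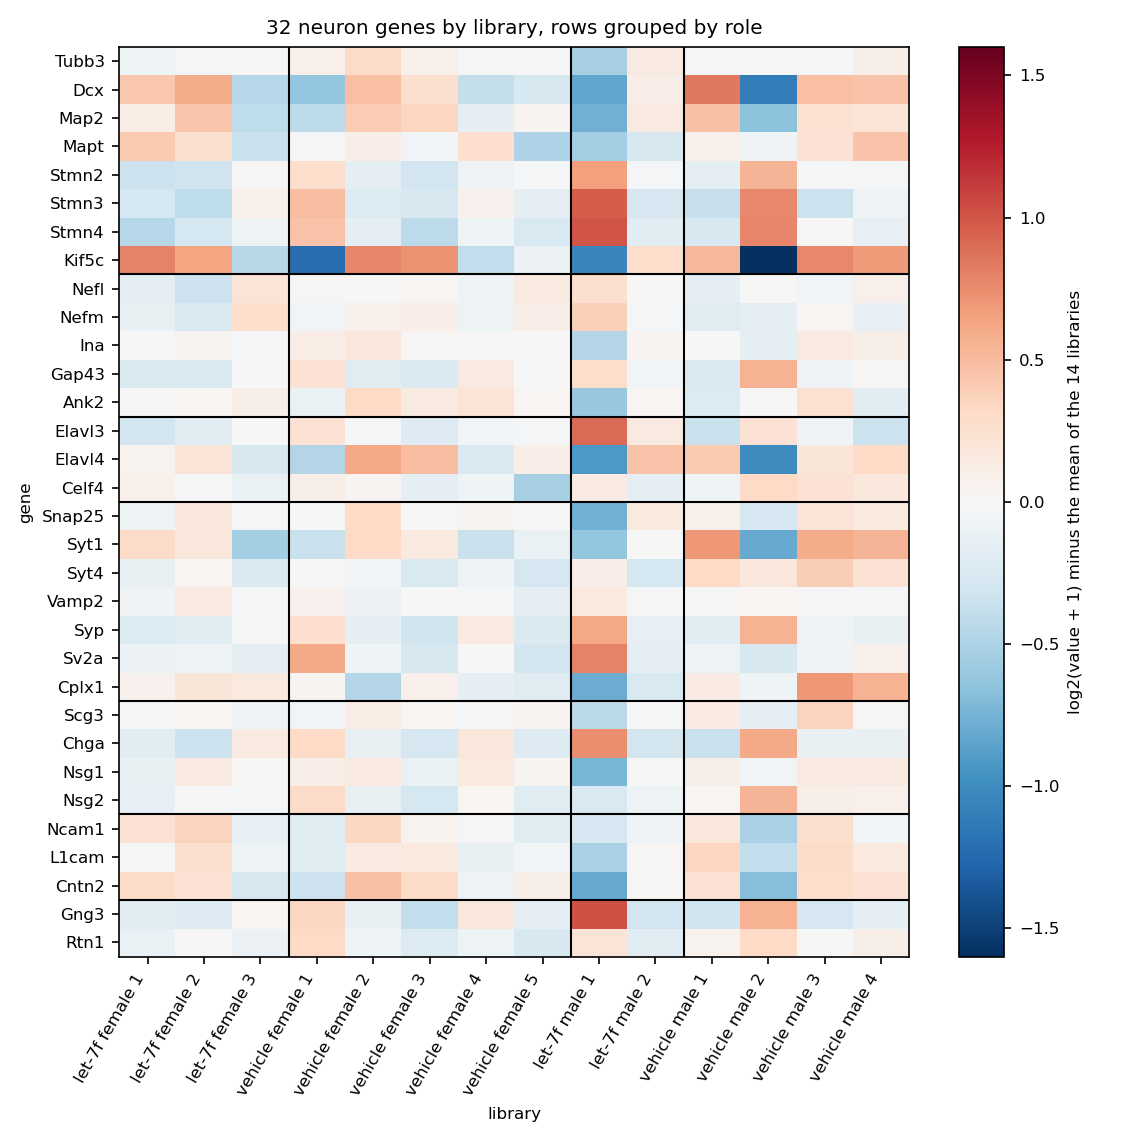
Log2(value + 1) of each neuron gene minus its mean over the 14 libraries, with genes in rows grouped by role and libraries in columns by group. In let-7f male 1 and vehicle male 2 the rows split, with Stmn3, Stmn4, Chga and Gng3 above their mean and Kif5c, Dcx, Elavl4 and Cntn2 below it.

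Among the microtubule genes, the tubulin varied little between fetuses and the kinesin varied most. Values are given per fetus in replicate order, or as the mean ± SD of 3 let-7f females, 5 vehicle females, 2 let-7f males and 4 vehicle males. Tubb3 had values of 17958, 18614 and 19046 in the let-7f females, against 19842, 23234, 19830, 18520 and 18794 in the vehicle females. In males Tubb3 had 13013 and 20733 with let-7f, against 18359, 18459, 18491 and 19985 with vehicle. The let-7f females lay within or below the vehicle female range and overlapped it, and let-7f male 1 alone was low. Kif5c, a kinesin-1 heavy chain that carries cargo along axons, had values of 19581, 17626 and 8322 in the let-7f females, against 4870.5, 19472, 18617, 8611 and 10665 in the vehicle females. In males Kif5c had 5485 and 13770 with let-7f, against 16254, 2869.9, 19301 and 18211 with vehicle. Both treatments held high and low fetuses, and the groups overlapped in both sexes. Dcx, the doublecortin of migrating neurons and the member with the let-7 seed match, had values of 12736, 14292 and 6882 in the let-7f females, against 6161, 13178, 11265, 7283 and 7916 in the vehicle females. In males Dcx had 5308 and 10203 with let-7f, against 17029, 4409.6, 13180 and 12966 with vehicle. Dcx and Kif5c varied together (r = 0.94 over 14 libraries), and the groups overlapped in both sexes.

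Stmn3, a stathmin that destabilises microtubules, had values of 2476, 2273 and 3168 in the let-7f females, against 4209, 2578, 2511, 3137 and 2686 in the vehicle females. In males Stmn3 had 5888 and 2499 with let-7f, against 2324, 5125, 2371 and 2829 with vehicle. Let-7f male 1 and vehicle male 2 were the highest, the reverse of Kif5c, and the groups overlapped. Stmn2, the stathmin also known as SCG10, averaged 6994 ± 1000.0 in let-7f females and 7786 ± 1209 in vehicle females, and 10246 ± 3394 in let-7f males and 8688 ± 2031 in vehicle males. Stmn4, a further stathmin, averaged 1739.6 ± 227 in let-7f females and 2006 ± 498 in vehicle females, and 3023 ± 1666 in let-7f males and 2331 ± 853 in vehicle males. Map2, which stabilises dendritic microtubules, averaged 10826 ± 3079 in let-7f females and 10682 ± 2473 in vehicle females, and 8562 ± 3716 in let-7f males and 11042 ± 3255 in vehicle males. Let-7f male 1 was the highest library for Stmn2 and Stmn4 and the lowest for Map2, and the groups overlapped in both sexes. Mapt, the axonal protein tau, had values of 9948, 8923 and 5806 in the let-7f females, against 7299.8, 7999.7, 7241, 8995 and 5289.6 in the vehicle females. In males Mapt had 5097 and 6233 with let-7f, against 7886, 7096, 8733 and 10196 with vehicle. Here both let-7f males lay below all 4 vehicle males, while the females overlapped.

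The neurofilament, growth cone and membrane skeleton genes varied least of the 7 classes, with a median SD of 0.18 log2 units across libraries, against 0.43 for the microtubule genes. Nefl, the light neurofilament subunit, averaged 5769.9 ± 1114 in let-7f females and 6195 ± 331 in vehicle females, and 6681 ± 796 in let-7f males and 5960 ± 412 in vehicle males. Nefm, the medium subunit, averaged 11708 ± 2294 in let-7f females and 12092 ± 742 in vehicle females, and 13452 ± 2759 in let-7f males and 10914 ± 779.5 in vehicle males. Ina, the subunit alpha-internexin, averaged 7354 ± 189 in let-7f females and 7659.5 ± 444 in vehicle females, and 6428 ± 1602 in let-7f males and 7454 ± 642 in vehicle males. For all 3 the let-7f and vehicle ranges overlapped in both sexes. Gap43, a growth cone protein, averaged 4455 ± 420.3 in let-7f females and 4964 ± 703 in vehicle females, and 5411 ± 842 in let-7f males and 5333 ± 1366 in vehicle males. Ank2, which encodes ankyrin-B, an adaptor between membrane proteins and spectrin, averaged 6067 ± 207 in let-7f females and 6451 ± 719.7 in vehicle females, and 4959 ± 1538 in let-7f males and 5797 ± 879.8 in vehicle males. These also overlapped in both sexes. In GENCODE M21, Nefm and Nefl lie on opposite strands with overlapping exons, as do Ina and Nt5c2, Nsg1 and Stx18, Gng3 and Bscl2, and Map2, Ncam1, Syp, Ank2 and Syt4 with predicted genes. The library kit marks strand, but no source used here says if counting did, and without strand reads of such partners cannot be told apart.

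The 3 RNA-binding genes diverged. Elavl3, the neuronal Hu protein HuC, had values of 5486, 5949.5 and 6749.6 in the let-7f females, against 7914, 6646, 5866, 6573 and 6659 in the vehicle females. In males Elavl3 had 12667 and 7447 with let-7f, against 5276, 7932, 6494 and 5306 with vehicle. Let-7f male 1 was the highest of all libraries, and the females overlapped. Let-7f male 2 lay inside the vehicle male range only through vehicle male 2 (7932), and above the other vehicle males. Elavl4, the related HuD, which stabilises messenger RNAs of growing neurons, had values of 2512, 2802 and 2038 in the let-7f females, against 1752, 3734, 3412, 2068 and 2604 in the vehicle females. In males Elavl4 had 1287 and 3331 with let-7f, against 3252, 1203, 2772 and 3027 with vehicle. Here let-7f male 1 and vehicle male 2 were the lowest, so that the close relatives Elavl3 and Elavl4 stood at opposite ends in the same fetuses. Celf4, a neuronal RNA-binding protein of the CELF family, averaged 1899.5 ± 128 in let-7f females and 1780.4 ± 283 in vehicle females, and 1912 ± 271 in let-7f males and 2155 ± 240.3 in vehicle males. Elavl3 shares exons on the same strand with a predicted gene, Gm49318, so its reads may be split.

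Of the vesicle release genes, Vamp2 varied least of all 32 members and Cplx1 had the largest estimated change in males. Vamp2, the vesicle SNARE synaptobrevin, had values of 3175, 3647 and 3246 in the let-7f females, against 3481, 3093, 3327, 3228 and 2988 in the vehicle females. In males Vamp2 had 3694 and 3269.9 with let-7f, against 3303, 3365, 3307 and 3226 with vehicle. The groups overlapped, and its SD over all libraries was 0.08 log2 units. Cplx1, a complexin that clamps and promotes SNARE fusion, had values of 300.1, 327 and 319 in the let-7f females, against 295, 206, 302, 258 and 249 in the vehicle females. In males Cplx1 had 164 and 242 with let-7f, against 313, 273, 462 and 419.9 with vehicle. Both let-7f males lay below all 4 vehicle males, whereas the let-7f females lay in the upper part of the vehicle female range and beyond it. Syt4, a synaptotagmin that binds calcium poorly, had values of 859.9, 953 and 798 in the let-7f females, against 932, 907, 789, 903 and 774 in the vehicle females. In males Syt4 had 1007 and 766 with let-7f, against 1169, 1057, 1229 and 1098 with vehicle. Both let-7f males lay below all vehicle males here as well, and the females overlapped.

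Syt1, the calcium sensor of fast release, averaged 765 ± 220.0 in let-7f females and 726 ± 154 in vehicle females, and 618 ± 183 in let-7f males and 967 ± 363 in vehicle males. Snap25, a plasma membrane SNARE, averaged 640.1 ± 58.0 in let-7f females and 664 ± 67.0 in vehicle females, and 534 ± 234 in let-7f males and 652 ± 91.9 in vehicle males. Snap25 was lowest in let-7f male 1 and Syt1 in vehicle male 2. Syp, the vesicle protein synaptophysin, averaged 1496 ± 106 in let-7f females and 1606 ± 285 in vehicle females, and 2019 ± 734 in let-7f males and 1752 ± 457 in vehicle males. Sv2a, a vesicle glycoprotein, averaged 1541 ± 44.7 in let-7f females and 1709 ± 481 in vehicle females, and 2188 ± 993 in let-7f males and 1578 ± 153 in vehicle males. The last 2 were highest in let-7f male 1, and all 4 genes overlapped between let-7f and vehicle in both sexes.

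Secretory and endosomal genes gave a similar picture. Nsg1, an endosomal protein that sorts neuronal receptors, had values of 4029.7, 4831 and 4458 in the let-7f females, against 4729.7, 4850.3, 4067, 4889 and 4532 in the vehicle females. In males Nsg1 had 2646 and 4377 with let-7f, against 4667, 4246, 4863 and 4856 with vehicle. Let-7f male 1 was the lowest library, and the females overlapped. Let-7f male 2 lay inside the vehicle male range only through vehicle male 2 (4246), and below the other vehicle males. Nsg2, a related endosomal protein whose promoter holds the left RE1 part, had values of 4443, 4864 and 4793 in the let-7f females, against 6026, 4517, 4018, 4993 and 4268 in the vehicle females. In males Nsg2 had 4131 and 4606 with let-7f, against 4994, 7142, 5206 and 5168 with vehicle. Both let-7f males lay below all 4 vehicle males, and the females overlapped. Chga, the dense-core granule protein chromogranin A, averaged 878 ± 156 in let-7f females and 948 ± 173 in vehicle females, and 1184 ± 579 in let-7f males and 984 ± 315 in vehicle males. Scg3, a secretogranin that binds chromogranins, averaged 1543 ± 56.3 in let-7f females and 1594 ± 69.2 in vehicle females, and 1356 ± 279 in let-7f males and 1678 ± 251 in vehicle males. In both genes the groups overlapped in both sexes.

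The adhesion genes moved with Kif5c and Dcx. Cntn2, the axonal adhesion protein TAG-1, had values of 8148, 7765 and 5508 in the let-7f females, against 5234, 9129, 8135, 6215 and 7053 in the vehicle females. In males Cntn2 had 3775 and 6697 with let-7f, against 7713, 4112, 7982 and 7732 with vehicle. Let-7f male 1 and vehicle male 2 were the lowest, and the groups overlapped. L1cam, an adhesion molecule of axon bundles, averaged 2694 ± 327 in let-7f females and 2566 ± 281 in vehicle females, and 2211 ± 572 in let-7f males and 2819 ± 598 in vehicle males. Ncam1, the neural cell adhesion molecule, averaged 8612 ± 1435 in let-7f females and 7733 ± 1196 in vehicle females, and 6829 ± 654 in let-7f males and 7664 ± 1716 in vehicle males. Gng3, a neuronal G protein gamma subunit, had values of 634, 622 and 739 in the let-7f females, against 909, 666, 547, 817 and 648 in the vehicle females. In males Gng3 had 1456 and 584 with let-7f, against 575, 1056, 599.7 and 644 with vehicle. Let-7f male 1 was the highest library and vehicle male 2 the next, and the groups overlapped. Rtn1, a neuronal reticulon of the endoplasmic reticulum, averaged 3314 ± 139 in let-7f females and 3351 ± 565 in vehicle females, and 3519.6 ± 665 in let-7f males and 3758 ± 371 in vehicle males. L1cam, Ncam1 and Rtn1 overlapped between treatments in both sexes.

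The comparison the injection was designed for, let-7f against vehicle, gave no called change among the 32 genes in females. The 32 estimates lay between -0.18 and 0.37 on the log2(value + 1) scale, 12 lay above 0 and 20 below, and the median was -0.05, against -0.004 over all 17400 tested genes. limma called 0 members at an adjusted p under 0.05, where it called 0.00575% of all genes, and 0 members had an unadjusted p under 0.05, where 0.810% of all genes did. On the reads recovered from the values, edgeR's quasi-likelihood test and DESeq2 called 0 members too, here and in each of the other 4 comparisons. For 0 members did all let-7f females lie above all vehicle females, against 0.787% of all genes, and for 0 did they all lie below, against 0.707%. The 5 smallest p-values belonged to Cplx1 at 0.28 (SE 0.201, 95% interval -0.16 to 0.71), Nefl at -0.12 (SE 0.127, 95% interval -0.39 to 0.16), Gap43 at -0.15 (SE 0.177, 95% interval -0.53 to 0.23), Ncam1 at 0.15 (SE 0.189, 95% interval -0.25 to 0.56) and Elavl3 at -0.15 (SE 0.185, 95% interval -0.55 to 0.25), each with a limma adjusted p of 0.9998. For 30 of the 32 genes the 95% interval excluded a change of 1 log2 unit either way, and for 14 it stayed within 0.5 log2 units. The median without the 5 libraries was -0.003.

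In males the estimates were wider and mostly below 0, and again none was called. The 32 estimates lay between -0.85 and 0.66, with 12 above 0, 20 below and a median of -0.20, against -0.002 over all genes. limma called 0 members and 0% of all genes at an adjusted p under 0.05. At an unadjusted p under 0.05 it had 5 members, 1 higher and 4 lower, that is 5 of 32, against 10.8% of all genes. Cplx1 had -0.85 (SE 0.238, 95% interval -1.36 to -0.33), Elavl3 0.66 (SE 0.219, 95% interval 0.18 to 1.13), Nsg1 -0.45 (SE 0.175, 95% interval -0.83 to -0.07), Syt4 -0.37 (SE 0.147, 95% interval -0.69 to -0.05) and Mapt -0.58 (SE 0.242, 95% interval -1.10 to -0.05), each with a limma adjusted p of 0.447. Both let-7f males lay below all 4 vehicle males for Mapt, Syt4, Cplx1 and Nsg2, 4 of 32 genes, against 5.90% of all genes, and above them for 0 members, against 4.14%. The interval excluded a change of 1 log2 unit either way for 20 of 32 genes.

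The male estimates moved with the choice of let-7f male. Without let-7f male 1, which had the high ribosomal protein share, the median was -0.09, and the estimates were -0.57 for Cplx1, 0.27 for Elavl3, -0.09 for Nsg1, -0.57 for Syt4 and -0.43 for Mapt, each from 1 let-7f male assumed to vary like the other groups. Without let-7f male 2 the median was -0.33 and limma called 9 members, Tubb3, Ina, Elavl3, Snap25, Sv2a, Cplx1, Scg3, Nsg1 and Gng3, that is 28.1% of the members, against 25.2% of all genes (4390 of 17400). The median without the 5 libraries was -0.13. Scores of 3 of the 16 other gene lists did not overlap between let-7f and vehicle males. Over all tested genes, both let-7f males lay above all vehicle males for 4.14% and below them for 5.90%. Whether 3 of 16 lists is more than so few fetuses give by chance was not tested. Scores of the 27 neural progenitor genes were 0.0458 and 0.141 in let-7f males, against -0.205 to -0.0470 in vehicle males. Those of the 20 proliferation genes were 0.107 and 0.174 in let-7f males, against -0.168 to -0.0518 in vehicle males. For the 18 cartilage and connective tissue genes they were -0.701 and -0.241 in let-7f males, against 0.170 to 0.301 in vehicle males. All genes of these 3 lists were detected, and the part of these differences in the neuron gene values was not tested.

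**Figure D3:**
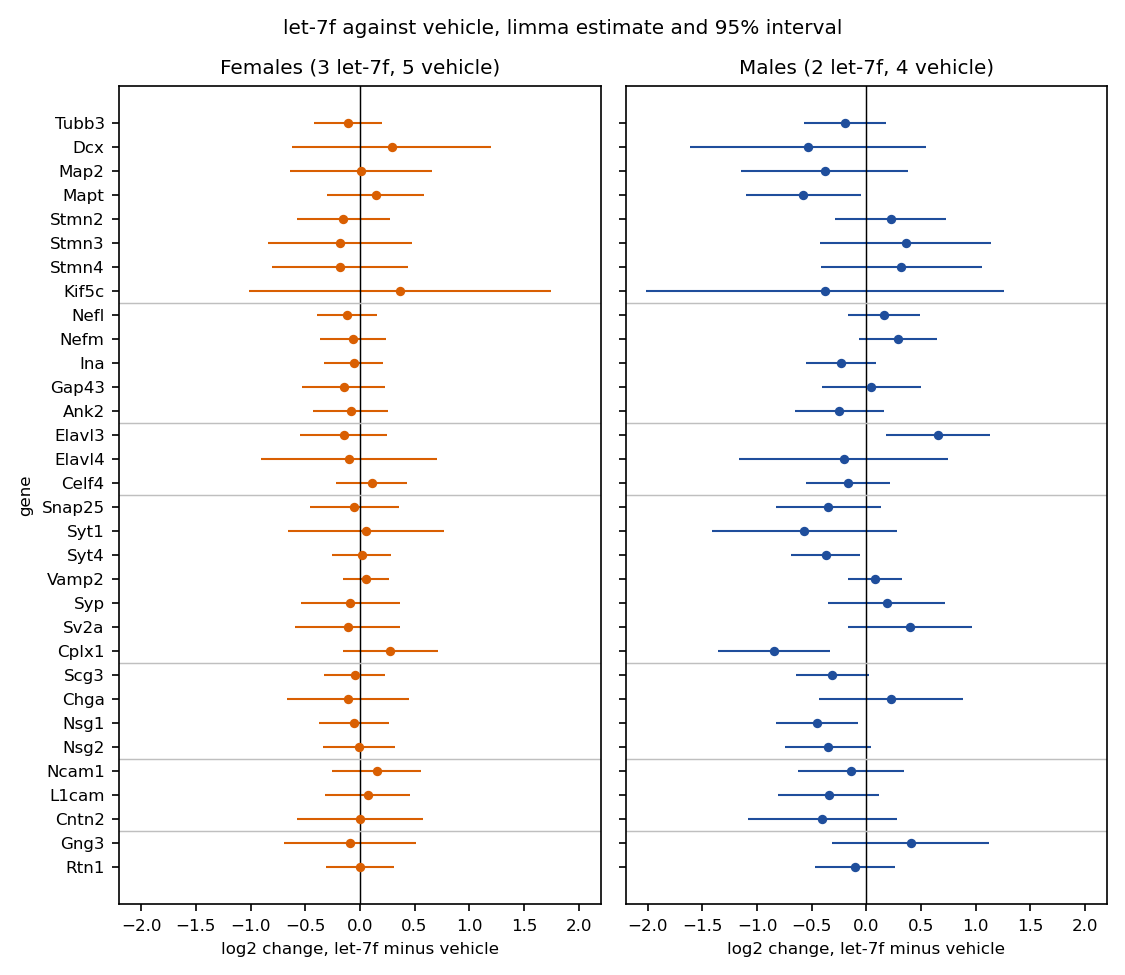
Estimated log2 change of each neuron gene, let-7f minus vehicle, with its 95% interval from limma, in females on the left and males on the right, genes grouped by role. Female estimates lie between -0.18 and 0.37 and male estimates between -0.85 and 0.66, and no gene passed an adjusted p of 0.05 in either sex.

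Averaged over the sexes, the 32 estimates lay between -0.28 and 0.25 with a median of -0.09, against 0.006 over all genes. limma called 0 members and 0% of all genes, and 1 member had an unadjusted p under 0.05, against 2.78% of all genes. This was Nsg1 at -0.25 (SE 0.114, 95% interval -0.50 to -0.01), followed by Syt4 at -0.18 (SE 0.096, 95% interval -0.38 to 0.03), Cplx1 at -0.28 (SE 0.156, 95% interval -0.62 to 0.05), Scg3 at -0.18 (SE 0.10, 95% interval -0.40 to 0.04) and Elavl3 at 0.25 (SE 0.143, 95% interval -0.06 to 0.56), each with a limma adjusted p of 0.947. For 31 of 32 genes the interval excluded a change of 1 log2 unit either way. Without let-7f male 2, which leaves 1 male with the mimic, Nsg1 was called at -0.43 with a limma adjusted p of 0.0232, as 1 of 32 members, against 5.02% of all genes.

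Whether the let-7f change differed between the sexes was tested as an interaction, the change in males minus the change in females. limma called 0 of the 32 genes and 0% of all genes, and 3 members had an unadjusted p under 0.05, against 8.53% of all genes. The smallest p-values were those of Cplx1 at -1.12 (SE 0.311, 95% interval -1.80 to -0.45), Elavl3 at 0.81 (SE 0.287, 95% interval 0.19 to 1.43), Mapt at -0.72 (SE 0.317, 95% interval -1.41 to -0.03), Syt4 at -0.39 (SE 0.192, 95% interval -0.80 to 0.03) and Nsg1 at -0.39 (SE 0.228, 95% interval -0.89 to 0.10), each with a limma adjusted p of 0.523. The median was -0.17, and it was -0.07 without let-7f male 1 and -0.41 without let-7f male 2. Without let-7f male 2, limma called 4 members, Elavl3, Snap25, Cplx1 and Nsg1, that is 12.5% of the members, against 18.4% of all genes.

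Between the vehicle males and vehicle females the neuron genes also showed no called difference. The median of male minus female was 0.03, with 20 genes above 0 and 12 below, and limma called 0 members, against 0.0402% of all genes. At an unadjusted p under 0.05 there were 2 members, against 2.63% of all genes. Syt4 had 0.40 (SE 0.114, 95% interval 0.16 to 0.65) and Cplx1 0.47 (SE 0.184, 95% interval 0.07 to 0.86), followed by Celf4 at 0.28 (SE 0.138, 95% interval -0.01 to 0.58), Nsg2 at 0.24 (SE 0.14, 95% interval -0.06 to 0.54) and Rtn1 at 0.18 (SE 0.132, 95% interval -0.11 to 0.46), each with a limma adjusted p of 0.9998. Syt4 was 1057 to 1229 in the 4 vehicle males, against 774 to 932 in the 5 vehicle females, so the sexes did not overlap for it. How many of all genes separate the sexes in this way was not counted. The let-7f males were set against these same 4 vehicle males, so the low let-7f estimates of Syt4 and Cplx1 in males and their high values in vehicle males share those fetuses. Without the 5 libraries the median was 0.15, from vehicle males 3 and 4 against vehicle females 3, 4 and 5.

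The cytoskeletal, RNA-binding and synaptic arms can be set side by side. In females the median change was -0.08 over the 13 cytoskeletal genes, -0.10 over the 3 RNA-binding genes and -0.05 over the 11 synaptic and secretory genes. In males it was -0.20, -0.17 and -0.35 in the same order, and over the mean of both sexes -0.05, -0.03 and -0.18. The medians of all tested genes were -0.004 in females, -0.002 in males and 0.006 over the mean. Arm medians were not computed without let-7f male 1, where the male median of all 32 genes went from -0.20 to -0.09. All 5 neurofilament, growth cone and membrane skeleton genes lay below 0 in females, by 0.06 to 0.15 log2 units, and 3 of 5 lay above 0 in males. All 3 adhesion genes lay above 0 in females (0.004 to 0.15) and below 0 in males (-0.40 to -0.14). All 4 secretory granule and endosome genes lay below 0 in females (-0.11 to -0.006), as did Gng3 and Rtn1. In males 3 of these 4 genes lay below 0. Over all tested genes, 49.1% lay above 0 in females and 49.9% in males. The neurofilament class score was -0.101, -0.147 and 0.110 in let-7f females, against 0.0135 to 0.0787 in vehicle females. The adhesion score was -0.529 in let-7f male 1 and -0.0098 in let-7f male 2, against -0.534 to 0.276 in vehicle males. The secretory granule and endosome score was -0.164 and -0.0968 in let-7f males, against -0.0259 to 0.241 in vehicle males, so these did not overlap. Both let-7f males lay below all vehicle males for 5.90% of all tested genes. Whether a class score separates so few fetuses more often than by chance was not tested. No gene of any class was called in either sex, and differences between classes were not tested.

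The larger variation among the neuron genes followed the ribosomal protein score of the library, a relation chosen after the data had been seen. With the 4 group means in the model, limma called a slope on that score for 22 of the 32 genes, 9 rising and 13 falling, against 57.0% of all genes. The falling genes were led by Kif5c at -1.29 (SE 0.209, limma adjusted p = 0.000177), Dcx at -0.86 (SE 0.132, limma adjusted p = 0.000124), Elavl4 at -0.82 (SE 0.0784, limma adjusted p = 2.17e-06), Syt1 at -0.64 (SE 0.119, limma adjusted p = 0.000538), Map2 at -0.62 (SE 0.0777, limma adjusted p = 2.15e-05) and Cntn2 at -0.56 (SE 0.0664, limma adjusted p = 1.42e-05), in log2 units per unit of score. The others that fell were Tubb3, Ina, Snap25, Scg3, Nsg1, Ncam1 and L1cam, with slopes of -0.36 to -0.18. The rising genes were Stmn3 at 0.67 (SE 0.0572, limma adjusted p = 7.77e-07), Stmn4 at 0.61 (SE 0.0731, limma adjusted p = 1.61e-05), Gng3 at 0.60 (SE 0.0613, limma adjusted p = 3.64e-06), Chga at 0.55 (SE 0.0616, limma adjusted p = 8.94e-06), Syp, Stmn2, Elavl3, Gap43 and Rtn1. The other 10 genes, Mapt, Nefl, Nefm, Ank2, Celf4, Syt4, Vamp2, Sv2a, Cplx1 and Nsg2, were not called. Among the 3 RNA-binding genes Elavl3 rose (0.35) and Elavl4 fell (-0.82). Among the microtubule genes the 3 stathmins rose while Tubb3, Dcx, Map2 and Kif5c fell, and all 3 adhesion genes fell. The 22 called are 68.8% of the members, and whether this share differs from that of all genes was not tested.

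Without let-7f male 1, 19 members were called, 9 rising and 10 falling, against 54.1% of all genes. Tubb3 then had -0.05 and Nsg1 -0.06, and neither was called, while Kif5c had -1.99, Dcx -1.29 and Syt1 -1.0. Without let-7f male 1 and vehicle male 2, the libraries farthest from the median score, 15 members were called, 7 rising and 8 falling, that is 46.9% of the members, against 31.3% of all genes. Kif5c then had a slope of -2.16 (SE 0.205, limma adjusted p = 0.000115), Dcx -1.40, Elavl4 -1.08, Stmn3 0.80 and Gng3 0.61, and Elavl3, at 0.34, was not called (limma adjusted p = 0.0972).

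**Figure D4:**
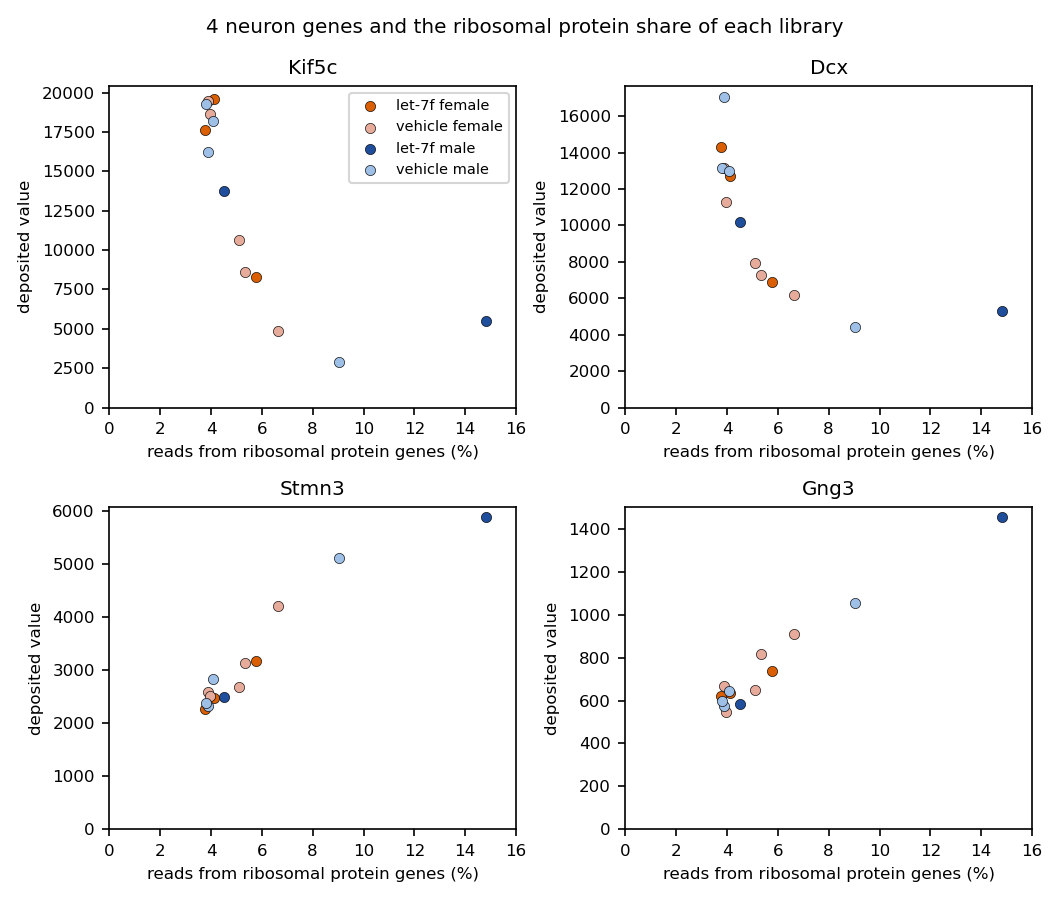
Deposited value of Kif5c, Dcx, Stmn3 and Gng3 in each of the 14 libraries against the percentage of its reads from ribosomal protein genes, coloured by group. Kif5c and Dcx are low and Stmn3 and Gng3 high in let-7f male 1, vehicle male 2 and vehicle female 1, at 14.8%, 9.04% and 6.65%, so in both treatments.

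The direction of these slopes ran with transcript length. All 3 members whose longest coding transcript is at most 1500 bases (Stmn3, Stmn4 and Gap43) had slopes above 0, with a median of 0.61, and of the 6 members over 6000 bases (Map2, Ncam1, Kif5c, Cntn2, Dcx and Ank2) 0 had a slope above 0, with a median of -0.59. Over all genes the medians in these length classes were 0.60 and -0.39. Spearman's correlation of length with slope was -0.64 over the 32 members and -0.61 over 15559 genes, as a description across genes that share the same libraries. Without let-7f male 1 it was -0.70 and -0.65. Members also departed from their length class. Elavl4 lay below the median of its class (-0.24) and Snap25 and Tubb3 below that of theirs (0.20), while Elavl3 lay above its class median (-0.24).

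**Figure D5:**
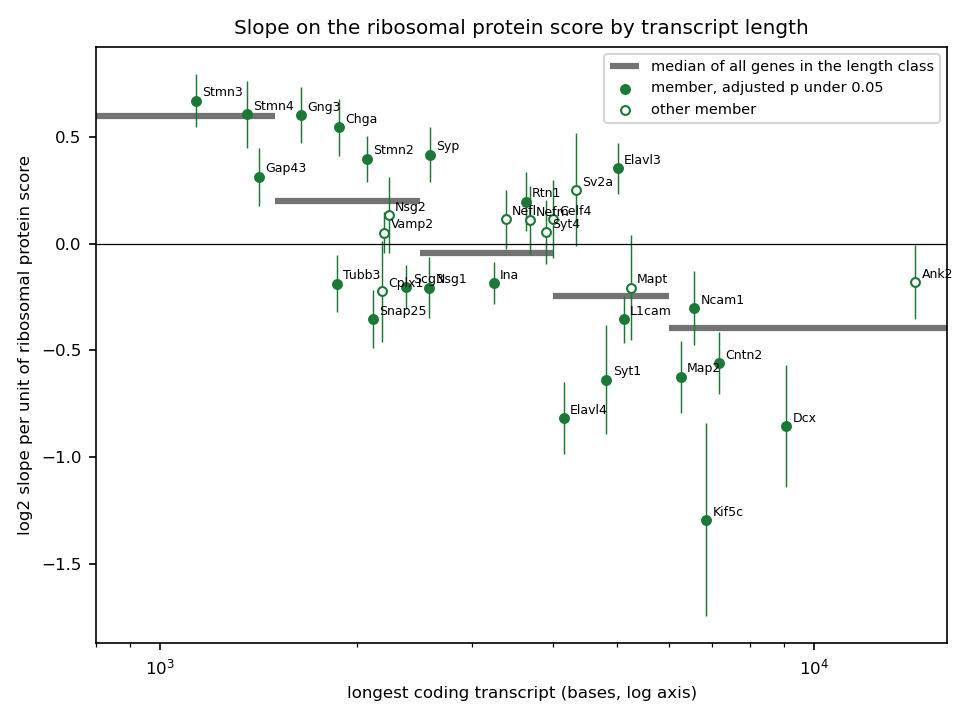
Slope of each neuron gene on the ribosomal protein score, in log2 units per unit of score with its 95% interval, against the length of its longest coding transcript on a log axis, with grey bars for the median of all genes in 5 length classes. Slopes run from 0.67 for Stmn3 to -1.29 for Kif5c, and the class medians of all genes fall with length, from 0.60 to -0.39.

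Other neuronal gene lists also held no called gene. Each gene named is one of the 2 smallest p-values in its list. Over the mean of both sexes limma called 0 of 22 other cytoskeletal genes (7 above 0, 15 below, median -0.09), with Kif3c at -0.26 (SE 0.132) and Crmp1 at -0.18 (SE 0.118). It called 0 of 14 other RNA-binding genes (5 above, 9 below, median -0.09), with Srrm3 at 0.19 (SE 0.124) and Khdrbs2 at 0.19 (SE 0.125). It called 0 of 32 other vesicle and secretory genes (15 above, 17 below, median -0.01), with Syn2 at -0.31 (SE 0.143) and Dnm3 at 0.24 (SE 0.12). It called 0 of 13 other adhesion genes (median -0.09), with Thy1 at 0.49 (SE 0.252) and Dscam at -0.16 (SE 0.128). It called 0 of 9 genes of REST and its corepressors (median -0.06), with Rcor1 at -0.22 (SE 0.243) and Sin3a at -0.09 (SE 0.106). Of 26 transcription factors of neuronal differentiation 0 were called (10 above, 16 below, median -0.09), with Pou4f2 at -0.51 (SE 0.195) and Pou4f1 at -0.17 (SE 0.0933), both transcription factors of sensory neurons. Of 17 transmitter identity genes 0 were called (median -0.01), with Slc17a7 at -0.35 (SE 0.186) and Th, the rate-limiting enzyme of dopamine synthesis, at -0.31 (SE 0.165). Without let-7f male 1 the medians of the RNA-binding, adhesion, REST and transcription factor lists lay above 0, at 0.03, 0.007, 0.06 and 0.03. Each limma adjusted p in the full set was 0.947.

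Lists of other cells in the fetus held no limma call over the mean of both sexes either. Over all 359 genes of the 16 lists, limma, edgeR and DESeq2 each called 0 in that comparison, with 6, 6 and 13 genes at an unadjusted p under 0.05. In males DESeq2 called Hba-x and Hbb-bh1, embryonic globins, and for the difference between the sexes these and Sox3, where limma and edgeR called 0. No listed gene in the table was at 0 in all libraries, though the table held 24 of the 27 liver genes and 11 of the 20 trophoblast genes listed. The 27 neural progenitor genes had a median of 0.01, with Dbx2 at -1.07 (SE 0.335) and Pax6 at 0.35 (SE 0.172), with 25 of 27 below 0 in females (median -0.23) and 20 of 27 above 0 in males (median 0.16, and -0.05 without let-7f male 2). The 12 glial genes had a median of 0.01, with all 12 above 0 in females (median 0.18) and 9 of 12 below 0 in males (median -0.19). Over all tested genes, 49.1% lay above 0 in females and 49.9% in males. Glial scores overlapped between let-7f and vehicle in both sexes. Pdgfra had the highest level of this list, and which cells gave its RNA was not tested. The 20 proliferation genes had a median of 0.07, with Aurkb at 0.12 (SE 0.0917) and Ccnb2 at 0.14 (SE 0.116). Medians were 0.16 for 19 erythroid genes (Hba-x at 0.91, SE 0.285, and Hbb-bh1 at 1.04, SE 0.418), 0.58 for 24 liver genes (Ahsg at 0.95, SE 1.1, and Apoc1 at 0.54, SE 0.632) and 0.05 for 18 skeletal muscle genes (Myf5 at -0.66, SE 0.266, and Tnnt1 at 0.42, SE 0.387). They were -0.18 for 18 cartilage and connective tissue genes (Matn3 at -1.03, SE 0.343, and Col1a1 at -0.35, SE 0.176), -0.29 for 9 trophoblast genes (Rhox9 at -1.23, SE 1.01, and Syna at -0.31, SE 0.267) and 0.39 for 79 ribosomal protein genes (Rpl5 at 0.47, SE 0.305, and Rpl29 at 0.45, SE 0.295). Several of these medians turned on 1 library. Without vehicle female 2, which had the low liver score, the liver median was -0.01 and the erythroid median -0.06. Without let-7f male 1 the ribosomal protein median was -0.13, the skeletal muscle median -0.14 and the cartilage median -0.08. Without vehicle male 1, which had the high trophoblast score, the trophoblast median was -0.07. Each limma adjusted p was 0.947.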

How the data were processed

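Poly-A RNA of 14 whole fetuses at gestational day 12.5 was sequenced from strand-specific libraries, per the labels' protocols. Tools listed without roles in the submitters' processing notes are kallisto 0.50.1, DESeq2 1.48.2, Trimmomatic 0.39, MultiQC 1.28 and FastQC 0.12.1, with the build GRCm39. The deposited values are a signal: the authors' reads per gene divided by 1 factor per library. Within each library the values were whole multiples of 1 unit (100% within 1e-06 of a read), so whole reads were recovered. The row with no gene name held 0.0180% to 0.0334% of reads and was left out. Depth was 27709934 to 42898166 reads, which limits counting error, not the spread between fetuses. Replicates of 1 group differed beyond sampling noise in all 20 within-group pairs (chi-square per degree of freedom 18.2 or more).

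The main test was limma 3.58.1 (R 4.3.3) on log2(value + 1) in genes with a mean of at least 10 (17400 of 18132), with 1 mean per group of treatment and sex, a trended empirical Bayes variance and Benjamini-Hochberg adjustment over all tested genes at 0.05. A log2 change on this scale understates the change of low genes. This fit of 4 groups gave the let-7f change in each sex, its mean and its difference between the sexes, and the sex difference under vehicle. Recovered reads were tested with DESeq2 1.42.0 (Wald) and edgeR 4.0.16 (quasi-likelihood, TMM), which with other pseudocounts, filters and scalings, a replicate block and leaving out libraries were alternatives. The models were also run on simulated data with known changes, with outcomes not reported here. Genes varied independently there, so the relation of most genes to the ribosomal protein score was not simulated. How the tests behave under such shared variation was not tested. The ribosomal protein slope, with and without its extreme libraries, that score as a covariate, and list medians without each library were added after seeing the data. Lengths and 3′ UTRs came from GENCODE M21 (GRCm38), and sequences from RefSeq (GRCm38.p6).

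The 32 members and all lists were chosen with earlier results of these data known. All members are named, with the 5 smallest p-values per comparison in full, and of other lists the 2 smallest over the mean of both sexes, of which some are not reported here. RE1 parts, E-boxes and other motifs were searched as exact letters. Tables and figures were made with Python 3.11.15, pandas 2.3.3, numpy 2.4.6 and matplotlib 3.10.9.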

Additional observations from a re-analysis of the deposited data

Results flagged for a closer look

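In the 68 tests of a vehicle group of 4 or 5 fetuses, 1 for each of the 32 genes, their mean score and their share of reads in each sex, 12 values stood far from the rest of their group by Dixon's criterion, which chance meets in about 1 of 20 such groups. The 68 tests share the same 9 fetuses and genes that vary together, so they are not independent. The criterion was not applied to the other genes, so the count has no share of all genes beside it.

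Vehicle male 2 held 7 of the 12 values. Stmn2 was 11693 there, against 7215 to 7937 in the other vehicle males, Syp 2432.6, against 1469.5 to 1592, Nsg2 7141.9, against 4994 to 5206, and Gng3 1055.8, against 575 to 644. Syt1 was 428.21, against 1092 to 1217, and Cntn2 4112, against 7713 to 7982. The 32 genes together took 0.39106% of its reads, against 0.514% to 0.532%. Its ribosomal protein share was 9.04%, against 3.82% to 4.09% in the other vehicle males.

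In vehicle male 4, Tubb3 was 19985, against 18359 to 18491 in the other vehicle males. Vehicle female 2, which had the low liver score of -5.38, had Tubb3 at 23234, against 18520 to 19842 in the other vehicle females, and Snap25 at 782.56, against 624 to 647. Vehicle female 1 had Sv2a at 2537.8, against 1359 to 1664, and Rtn1 at 4315, against 2904 to 3295, and its ribosomal protein share was 6.65%, against 3.88% to 5.34%.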

How the results depend on the processing

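No member was called by limma in any of the 5 comparisons, nor under the other pseudocounts, filters, scalings, tools, block and covariate tried, except when let-7f male 2 was left out. Leaving out 1 library at a time gave 0 to 9 members called in males, 0 to 1 over the mean of both sexes and 0 to 4 for the difference between sexes, the highest each time without let-7f male 2, when let-7f male 1 was the only male given the mimic. Counts over all genes then ranged from 0 to 1 in females, 0 to 4390 in males, 0 to 874 over the mean and 0 to 3206 for the difference. In females the count over all genes was 1, and 0 with pseudocount 5, the replicate block, edgeR, without the 5 libraries or with only the compared groups, and 2 with no filter or DESeq2. In males it was 1 with pseudocount 0.5. DESeq2 called 58 genes in males, 8 over the mean, 27 for the difference and 12 for sex, where limma called 0, 0, 0 and 7. The median change of the members in males was -0.20, from -0.33 without let-7f male 2 to -0.0851 without let-7f male 1, and -0.0699 with the ribosomal protein score as a covariate. For the difference it was -0.17, from -0.41 without let-7f male 2 to -0.0732 without let-7f male 1, -0.26 when rescaled to the 75th percentile and -0.0331 with the covariate. For sex it was 0.03, and 0.15 without the 5 libraries. Rescaling moved the median of all genes by less than 0.1 log2 units in each comparison. Of 615 values of single genes, 607 kept direction and side of the threshold, 7 passed it, all without let-7f male 2, and Nefl in females (-0.12) ran from -0.266 without let-7f female 3 to 0.00274 without let-7f female 2. The cause of these shifts was not tested. Leaving out 1 library gave 19 to 23 members with a slope on the ribosomal protein score. Same-numbered fetuses of different groups were not paired, since their correlations ran from -0.58 to 0.35 over 16 pairs 5 exceeded 0.1, and 1 library correlated best with its own number. The replicate block changed no other call. With 2 let-7f males, the precision of male changes is set by the fetuses, not by depth.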
